A study of Mus musculus with 12 samples.

Results

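The peaks described here lie nearest to the genes of voltage-gated sodium channels and of voltage-gated calcium channels with their auxiliary subunits. They were taken as every peak whose nearest-gene name begins with Cacna, Cacnb or Cacng or is Scn, a number and a or b. The rule found 844 of 281974 peaks, near 38 genes. NeuN+ nuclei had 550 of them (71 start-site, 479 distal), microglia 169 (40 and 129) and Olig2+ nuclei 125 (34 and 91). A start-site peak had its centre within 1000 bp of the annotated transcription start site (TSS) named beside it, and every other peak was distal.

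Chromatin accessibility came from ATAC-seq, which reads where a transposase can insert adapters into DNA, of forebrain of C57BL/6 mice aged 4 months. WT mice were compared with SgshKO mice, which lack the gene of a lysosomal enzyme that degrades heparan sulfate. Microglia were taken by flow sorting of unfixed cells (CD11b+, low CD45, CX3CR1+), whereas NeuN+ nuclei (neurons) and Olig2+ nuclei (oligodendrocyte lineage) were sorted after light formaldehyde fixation. Each of the 6 groups (mg, NeuN and Olig2, WT and SgshKO) had 2 libraries, and the labels do not say that these came from separate mice, so the p-values measure only the spread between these libraries.

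Voltage-gated sodium channels carry the rising phase of the action potential through a pore subunit (an Scn gene ending in a), with beta subunits (ending in b) that tune gating and act as adhesion molecules. Calcium channels have a pore (Cacna1), an extracellular alpha2delta subunit (Cacna2d) that brings the channel to the membrane, and a cytoplasmic beta subunit (Cacnb). The Cacng genes encode gamma subunits, several of which are AMPA receptor partners (TARPs) rather than calcium channel subunits. In neurons the P/Q, N and R-type pores trigger transmitter release, L-type pores couple activity to transcription, and T-type pores open near rest and support bursts.

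Values are normalized tags per peak, scaled to 10000000 tags a library. Library totals ran from 10771659 to 19555924 tags. The share of tags in peaks was 48.7% to 67.4% in microglia, 25.9% and 26.7% in WT against 21.2% and 21.5% in SgshKO NeuN+ nuclei, and 30.9% to 31.8% in Olig2+ nuclei. The sorts were checked by tags summed over start-site peaks of marker genes. The microglia list (7 of 8 genes with such a peak) summed to 1975 to 2576 in microglia, the neuron list (8 of 8) to 466 to 890 in NeuN+ nuclei, and the oligodendrocyte list (8 of 8) to 2400 to 3038 in Olig2+ nuclei. In Olig2+ nuclei 4 of 8 neuron markers also had a start-site peak, and their sum was 255 to 287 in WT and 323 to 335 in SgshKO. In NeuN+ nuclei 3 of 8 oligodendrocyte markers did (128 to 144 in WT, 68.4 to 69.8 in SgshKO), and in microglia 1 of 8 neuron markers did (25.9 to 32.2 in WT, 41.8 to 49.4 in SgshKO). The Sgsh peak nearest the TSS had 184 and 162 tags in WT and 257 and 260 in SgshKO microglia, 34.5 and 22.6 against 9.07 and 13.3 in NeuN+ nuclei, and 65.9 and 74.2 against 60.9 and 69.1 in Olig2+ nuclei. Where in Sgsh the deletion lies is not given in the sources used here, so these values do not check the genotype labels.

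The sequences below lie directly before the TSS of 6 channel genes whose start-site peak was found in both nuclei sorts, and are shown because results described below fell on the peaks over them, with Scn2a as a start site whose NeuN+ peak was not called. Each is the 250 bases before the start from RefSeq (GRCm38.p6), 5′ to 3′ on the strand of the gene, with the letters GGGCGG or CCGCCC (a GC box on either strand, bound by Sp-family factors) in capitals. They lie at chr14:29721865-29722114 (Cacna2d3, minus strand), chr5:15934441-15934690 (Cacna2d1, plus), chr9:107399630-107399879 (Cacna2d2, plus), chr2:24763153-24763402 (Cacna1b, minus), chr15:98634517-98634766 (Cacnb3, plus) and chr2:65668436-65668685 (Scn2a, plus).
Cacna2d3: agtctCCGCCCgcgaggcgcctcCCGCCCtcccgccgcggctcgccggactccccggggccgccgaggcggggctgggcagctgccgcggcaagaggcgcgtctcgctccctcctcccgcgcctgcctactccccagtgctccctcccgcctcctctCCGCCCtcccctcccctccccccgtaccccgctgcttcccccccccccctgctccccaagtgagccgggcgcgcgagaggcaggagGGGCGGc
Cacna2d1: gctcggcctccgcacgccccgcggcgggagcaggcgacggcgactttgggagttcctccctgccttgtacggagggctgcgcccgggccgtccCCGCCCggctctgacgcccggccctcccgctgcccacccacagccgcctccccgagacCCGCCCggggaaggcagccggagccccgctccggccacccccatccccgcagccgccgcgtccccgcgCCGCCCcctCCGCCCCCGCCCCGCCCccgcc
Cacna2d2: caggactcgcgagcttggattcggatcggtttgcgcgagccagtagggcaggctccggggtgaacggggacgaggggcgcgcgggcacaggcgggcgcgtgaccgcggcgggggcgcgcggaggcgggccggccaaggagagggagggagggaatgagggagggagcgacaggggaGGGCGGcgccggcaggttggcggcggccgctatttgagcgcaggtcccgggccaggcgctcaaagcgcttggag
Cacna1b: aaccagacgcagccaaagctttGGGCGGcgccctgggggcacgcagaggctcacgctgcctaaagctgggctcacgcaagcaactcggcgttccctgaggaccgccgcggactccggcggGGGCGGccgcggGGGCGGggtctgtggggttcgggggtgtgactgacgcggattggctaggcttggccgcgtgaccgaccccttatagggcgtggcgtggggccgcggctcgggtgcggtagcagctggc
Cacnb3: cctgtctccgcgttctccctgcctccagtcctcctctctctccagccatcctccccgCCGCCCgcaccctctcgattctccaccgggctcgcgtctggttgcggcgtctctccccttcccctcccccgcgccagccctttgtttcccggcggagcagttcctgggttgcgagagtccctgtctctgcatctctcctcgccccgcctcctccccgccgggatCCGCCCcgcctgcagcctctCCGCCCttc
Scn2a: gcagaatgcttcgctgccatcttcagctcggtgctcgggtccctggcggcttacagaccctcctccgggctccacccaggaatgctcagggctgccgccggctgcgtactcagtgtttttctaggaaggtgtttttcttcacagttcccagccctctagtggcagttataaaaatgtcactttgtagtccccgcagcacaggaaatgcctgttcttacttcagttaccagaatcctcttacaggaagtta

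The Cacna2d1, Cacna2d3 and Cacna2d2 sequences had a GC content of 82.4%, 80% and 74.4%, against 53.2% for Scn2a and a median of 52.4% over all 32851 RefSeq windows of this length. They held 6, 4 and 1 GC boxes, overlapping matches counted, whereas the Scn2a window held 0. These windows do not stand for all genes. The window of the Cacnb4 start whose peak at -14 bp was called lower in NeuN+ nuclei had 48.8% and 0 boxes. That of Cacna1d, not called in that sort, had 86.4% and 5. Whether GC content or GC boxes go with the calls was not tested. Of the 38 channel genes, 28 had a RefSeq window; the tables gave 41 windows for 30 genes of the rule. At least 1 GC box stood in 36.6% of the 41 and in 32.7% of all windows. Of the 25 windows under a NeuN start-site peak, 52.0% held one, and their median GC content was 62.4%. These values were not computed for all windows under a NeuN start-site peak. The palindrome CACGTG, the core of the E-box read by the MITF and TFEB family of lysosomal regulators, was in 0 of the 41 windows and in 6.02% of all. The AP-1 letters TGACTCA (either strand) were in 1 of the 41, the start of Cacng5, and in 4.46% of all.

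The channel genes were mainly a feature of the neuronal table. In NeuN+ nuclei 37 of the 38 genes had a peak and 31 had a start-site peak, against 28 and 19 in microglia and 28 and 21 in Olig2+ nuclei. Channel peaks were 0.511% of all NeuN+ peaks, 0.184% of microglial peaks and 0.151% of Olig2+ peaks. They took 0.345% to 0.362% of the reads in peaks in the NeuN+ libraries, 0.0972% to 0.120% in microglia and 0.0898% to 0.0971% in Olig2+ nuclei, with Wilson 95% intervals that cover counting error only and do not meet between NeuN+ nuclei and the others. The genes are long, with a median of 110 kb among those with a NeuN+ peak, against 23.4 kb for all such genes. Per 100 kb of gene they had a median of 14.8 peaks in NeuN+ nuclei, close to the 14.2 of all genes, but 6.23 against 15.5 in microglia and 3.53 against 10.9 in Olig2+ nuclei. These densities were not tested.

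Some genes were marked in 1 sort. Scn1a, the main sodium pore of inhibitory neurons, Scn9a and Scn11a had peaks only in the NeuN+ table, and Scn4a, a muscle sodium pore, only in the microglial table. Among the alpha2delta genes, Cacna2d1, Cacna2d3 and Cacna2d4 had peaks in both nuclei tables and none in the microglial one. A start-site peak was found in all 3 sorts for 12 genes, among them Cacna1a, Cacna1c, Cacna1g, Cacnb3, Cacng2, Scn3b and Scn8a. Most distal channel peaks were intronic by the authors' annotation: 77.0% in the neuronal table, 71.3% in the microglial one and 84.6% in the Olig2+ one, against 53.9%, 53.5% and 56.8% of all distal peaks. By RefSeq gene spans, 79.7%, 75.2% and 81.3% of distal channel peaks lay inside the gene they were named for, while 35, 10 and 10 lay only inside another gene. The assignment is to the nearest TSS, so a peak between neighbouring channel genes (Cacng4 and Cacng5, or Scn10a and Scn11a) is named for one of them.

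In WT most of the channel start-site peaks that could be matched between the nuclei sorts, 25 in 18 of the 38 genes, were more open in NeuN+ than in Olig2+ nuclei. Of 66 channel peaks matched one to one between these tables at a reciprocal overlap of 50%, 42 differed (limma, Benjamini-Hochberg adjusted p under 0.05 over all matched peaks), 29 higher and 13 lower in NeuN+ nuclei. Over all matched peaks 56.2% differed, 22.5% higher and 33.7% lower, and 51.6% of the distal ones did. Of the 25 matched start-site peaks, 19 were higher and 2 lower in NeuN+ nuclei, with a median log2 difference of 1.08, where 24.4% of all matched start-site peaks were higher, 36.6% were lower and the median was -0.14. The matched peaks were 12.0% of the NeuN+ channel peaks and 52.8% of the Olig2+ ones. Sort, preparation and the share of tags in peaks cannot be told apart here.

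The Cacna1b start site (N-type pore) had 126 ± 1.33 tags (SD, n = 2) in WT NeuN+ nuclei and 14.1 ± 3.13 in WT Olig2+ nuclei, a log2 difference of 3.08 (adjusted p = 3.04e-15). The Cacnb3 peak at 116 bp, over a start of this calcium beta subunit, had 111 ± 4.56 against 17.5 ± 0.905, a difference of 2.60 (adjusted p = 5.61e-14). Cacng2, the TARP stargazin, went the other way, with 19.2 ± 8.04 tags in NeuN+ and 89.6 ± 1.63 in Olig2+ nuclei at its shared peak (log2 difference -2.22, adjusted p = 1.41e-10). The largest log2 difference of the 66 was in a distal peak, in intron 2 of Cacnb4 at chr2:52510189-52510423, which had 11.3 ± 1.57 tags in NeuN+ and 165 ± 16.5 in Olig2+ nuclei (difference -3.76, SE 0.176, adjusted p = 2.16e-19). Thus Cacnb4 carried an Olig2+ intronic peak, while its start-site peak at -14 bp was higher in NeuN+ nuclei (69.9 ± 1.35 against 45.6 ± 0.0919, adjusted p = 0.00314).

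**Figure D1:**
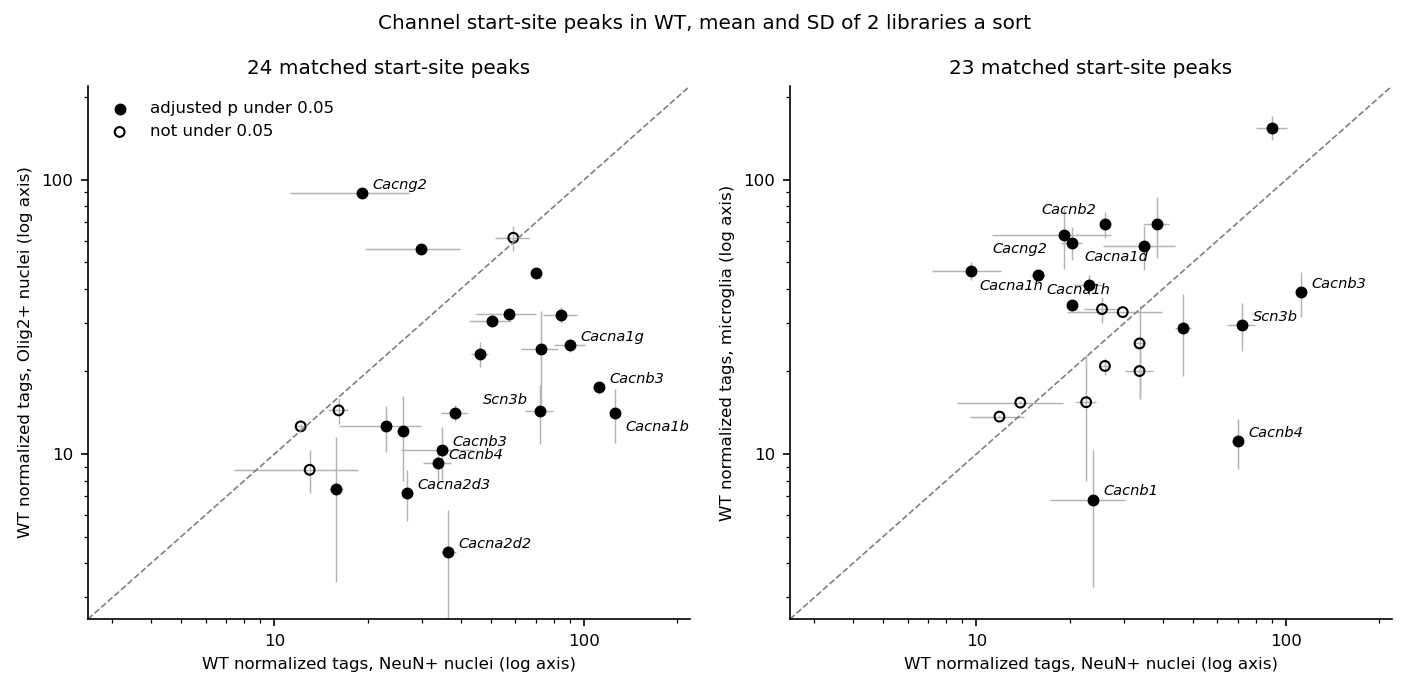
Mean normalized tags in WT (error bars, SD of 2 libraries) at matched start-site peaks, NeuN+ nuclei on the x axis against Olig2+ nuclei (left, 24 peaks drawn) or microglia (right, 23 peaks drawn) on the y axis, both log axes, with equality as a dashed line. On the left 18 peaks lie below the line past the test and Cacng2 far above it; on the right the points lie on both sides.

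Several channel start sites were also open in WT microglia. Cacna1g, a T-type pore gene, had 144 and 166 tags there. Both values lay above the 90.2 ± 10.2 of WT NeuN+ nuclei at the matched peak (log2 difference, NeuN+ minus microglia, -0.78, adjusted p = 0.00168). Of 67 peaks matched between NeuN+ nuclei and microglia 35 differed, 8 higher and 27 lower in NeuN+ nuclei (61.9% of all matched peaks differed, 14.6% higher and 47.3% lower). That balance rests on the scaling: with tags scaled to their sum in the matched peaks 21 were higher and 15 lower, and with quantile normalization 23 and 12. Distal peaks far more open in microglia were one in intron 2 of Cacna1h with 7.35 ± 1.62 tags in NeuN+ nuclei and 187 ± 42.6 in microglia (-4.49, adjusted p = 2.82e-09), one in intron 1 of Scn8a with 12.4 ± 3.22 and 124 ± 26.0 (-3.22, adjusted p = 7.38e-08), and one in intron 4 of Cacna1d with 23.2 ± 4.05 and 136 ± 18.2 (-2.50, adjusted p = 3.37e-08). Of the 27 channel peaks matched between Olig2+ nuclei and microglia, 16 differed, 3 higher and 13 lower in Olig2+ nuclei (64.6% of all matched, 20.8% higher and 43.7% lower), or 6 and 7 after quantile normalization. The Cacna1a peak at -960 bp had 8.76 ± 0.0919 tags in Olig2+ nuclei against 132 ± 9.11 in microglia (log2 difference -3.77, adjusted p = 2.60e-09).

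In microglia few channel peaks changed with Sgsh loss. The test called 5 of 169 (2.96%), of which 3 were higher and 2 lower in SgshKO, where 7.37% of all peaks were called, 5.05% higher and 2.33% lower (limma on log2(tags + 1), adjusted p under 0.05 over the table). All changes below are on that log2 scale, which understates those of low peaks. Nearly all called peaks had no overlap between genotypes: 6754 of 6765 in microglia, 32096 of 32105 in NeuN+ and 16353 of 16370 in Olig2+ nuclei. Non-overlap given below for a called peak therefore adds nothing to its call. The start-site peaks had a median log2 change of -0.35 (0.03 over all start-site peaks), and 3 of 40 were called, 1 higher and 2 lower, against 9.8% of all, 8.59% higher and 1.2% lower. The offset between these medians was -0.38, also with in-peak and median-of-ratios scaling, but -0.17 with quantile normalization and -0.16 with cyclic loess. It was not tested. The channel start sites were also less open, with a median of 29.1 tags in WT against 48.0 over all start-site peaks. Of the 129 distal peaks 2 were called, both higher, against 6.52% of all distal peaks, 3.8% higher and 2.72% lower. The count rests on single libraries. Without WT library 1 or 2 limma called 1 or 0 channel peaks (9 or 6 at an unadjusted p under 0.05; edgeR called 4 or 3), and without SgshKO library 1 or 2 it called 25 or 22. With tags scaled to their sum in peaks 15 were called, 4 higher and 11 lower, and with edgeR 13, 7 and 6.

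The sodium beta subunit gene Scn3b had the 1 start-site peak called higher in microglia. Its promoter peak at chr9:40269045-40269303 had 33.7 and 25.4 tags in the WT libraries and 89.2 and 80.8 in the SgshKO libraries. Both SgshKO libraries lay far above both WT libraries. The log2 change was 1.504 (limma, SE 0.351, adjusted p = 0.00531). Without WT library 1 or 2 limma's adjusted p was 0.106 or 0.487, while edgeR's was 0.00648 or 0.0181. The same start site fell in NeuN+ nuclei, from 66.8 and 77.4 to 55.1 and 48.3 tags (-0.47, adjusted p = 0.0288). That is near the median change of -0.53 over all start-site peaks of NeuN+ nuclei. In Olig2+ nuclei the Scn3b start had 11.9 and 16.9 tags in WT and 14.1 and 13.96 in SgshKO. The changes themselves differed between NeuN+ nuclei and microglia (interaction -1.98, SE 0.318, adjusted p = 7.23e-05). The median interaction of all matched start-site peaks was -0.74, and with in-peak scaling the Scn3b interaction was -1.08 (adjusted p = 0.0129). The Scn3b changes also differed between Olig2+ nuclei and microglia (-1.52, SE 0.412, adjusted p = 0.0181). The latter lost its call without Olig2 WT library 2 (adjusted p = 0.115), either Olig2 SgshKO library (0.0611 and 0.0603) or mg WT library 2 (0.0923).

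Of the other called microglial peaks, the largest by tags was intergenic, at chr9:119737051-119737288 between Scn10a and Scn11a, sodium pores best known from sensory neurons. It had 78.6 and 61.0 tags in WT and 260 and 185 in SgshKO, so that the groups did not overlap (log2 change 1.65, SE 0.300, adjusted p = 0.000377; 0.170 without WT library 2). No peak of these genes was near a TSS in any sort. At the Cacng2 promoter (chr15:78119726-78120077, at -621 bp) tags fell from 51.9 and 74.6 to 19.1 and 14.9 (-1.83, SE 0.391, adjusted p = 0.00238; 0.0544 and 0.438 without WT library 1 or 2). Marker sums of other cell types moved in these libraries too, without overlap between genotypes. The oligodendrocyte precursor sum (2 of 4 genes with a start-site peak) was 108 to 141 in WT and 55.7 to 59.7 in SgshKO, the direction of Cacng2. The oligodendrocyte sum (3 of 8 genes) was 239 to 270 and 300 to 353. Its genes did not move alike: mean summed tags of Mbp rose from 99.2 to 167 and of Cnp from 111 to 127, while Mog fell from 43.7 to 32.4. The neuron sum given above was also higher in SgshKO, but it was 1 Slc17a7 peak that was not called. Both sums went in the direction of Scn3b, of the intergenic peak and of the Scn8a peak below. The part of these cells in the channel values was not tested. A second Cacna1h promoter peak, at -265 bp, was also called (19.9 and 22.03 against 8.66 and 4.64, adjusted p = 0.0396). It was named for the difference of its change from that in Olig2+ nuclei. A called intron 1 peak of Scn8a lay outside the naming rule and was chosen after its values were seen (6.05 and 3.39 against 28.6 and 15.8, adjusted p = 0.0102). Cacnb2 had 74.3 and 63.5 tags in WT and 40.7 and 40.9 in SgshKO at its start and was not called (adjusted p = 0.196). The open Cacna1g start had an adjusted p of 0.859.

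**Figure D2:**
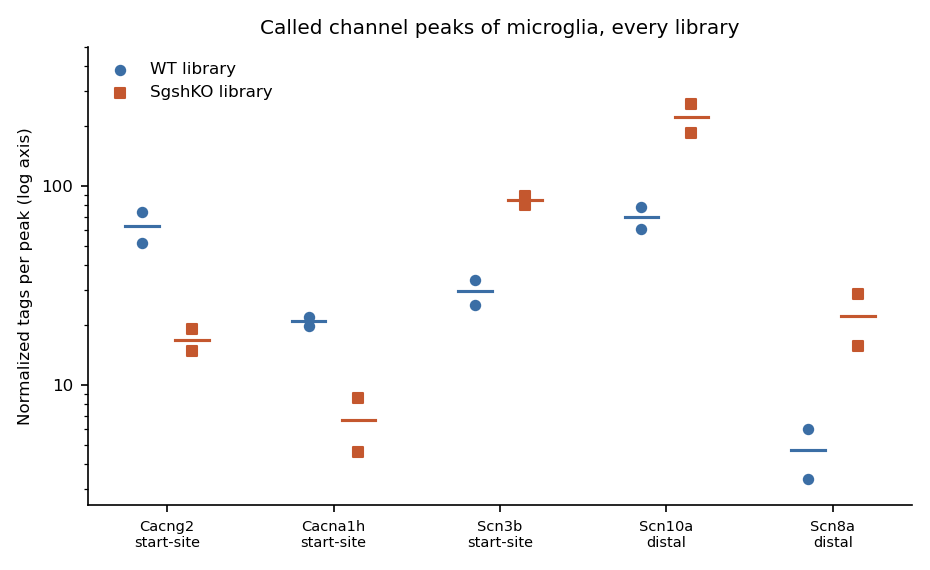
Normalized tags (log axis) of each WT and SgshKO library at the 5 called channel peaks of microglia, with the mean of 2 libraries as a bar. In all 5 the groups do not overlap, as in 6754 of all 6765 called microglial peaks. Scn3b, Scn10a and Scn8a are higher and Cacng2 and Cacna1h lower in SgshKO.

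In NeuN+ nuclei 139 of 550 channel peaks were called, 35 higher and 104 lower (25.3%), beside 29.8% of all peaks, 10.2% higher and 19.6% lower. Of the channel start sites called, nearly all were lower in SgshKO, as were start sites in general. Of 71 start-site peaks 33 were called, 2 higher and 31 lower. That is 46.5%, beside 46.6% of all start-site peaks in this table (1.74% higher, 44.9% lower), and the median log2 change was -0.55 beside -0.53, so that the share called was that of start sites in general. The neuron marker sum was also lower in SgshKO (839 to 890 in WT, 466 to 476 in SgshKO), as was the share of tags in peaks. The sums of the other lists with a start-site peak in this sort were lower without overlap as well. The oligodendrocyte precursor sum (2 of 4 genes) was 30.5 to 31.2 against 17.5 to 19.7, the astrocyte sum (1 of 6) 57.0 to 62.3 against 34.9 to 44.0, the microglia sum (1 of 8) 48.0 to 54.4 against 32.4 to 34.2, and the oligodendrocyte sum is given above. Median log2 changes of their peaks ran from -0.84 to -0.62, with -0.65 for the neuron list. Fewer nuclei of a type and lower accessibility per nucleus cannot be told apart in these bulk libraries. With tags scaled to their sum in peaks the start-site calls were 2 higher and 15 lower, and with edgeR (TMM) 2 and 21.

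Among sodium channel genes, Scn4b, a beta subunit linked to resurgent sodium current, had 27.8 and 23.2 tags in WT and 9.07 and 5.71 in SgshKO at its peak at -232 bp (chr9:45138703-45138917). Both SgshKO libraries lay below both WT libraries, and this was the largest called fall among the start-site peaks of this sort. Its log2 change was -1.68 (SE 0.287, adjusted p = 0.000394). Scn8a, the main pore of mature axons, fell from 91.8 and 76.8 to 62.1 and 45.1 (-0.66, adjusted p = 0.00702), and Scn9a from 16.4 and 19.2 to 11.2 and 8.25 (-0.82, adjusted p = 0.0351). In contrast Scn2a, a pore of excitatory neurons, had 44.8 and 55.9 tags in WT and 54.4 and 50.2 in SgshKO. These overlap, and the change was 0.06 (SE 0.168, adjusted p = 0.799). Scn1a had 11.9 and 10.7 against 9.07 and 8.89 (adjusted p = 0.454).

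Among calcium channel pores, the T-type gene Cacna1g fell from 97.4 and 83.0 to 43.3 and 45.1 tags (-1.01, SE 0.151, adjusted p = 0.000117). The N-type gene Cacna1b, the most open channel start site in this sort, fell from 125 and 127 to 92.1 and 74.9 (-0.59, adjusted p = 0.00254), and the P/Q-type gene Cacna1a from 23.8 and 21.5 to 9.77 and 15.2 (-0.84, adjusted p = 0.0260). A second Cacna1b peak, at 579 bp, fell from 43.0 and 32.8 to 25.1 and 23.5 (-0.61, adjusted p = 0.0346), while a low one at -881 bp rose from 11.3 and 3.39 to 20.2 and 12.7 (1.21, adjusted p = 0.0288). The L-type gene Cacna1c also moved in both directions. Its peak at 119108484 to 119108737 on chr6 fell from 66.3 and 48.6 to 27.2 and 34.3 (-0.87, adjusted p = 0.00316), whereas the peak over a start at chr6:118757825-118758083 rose from 10.8 and 8.47 to 16.8 and 19.7 (0.86, adjusted p = 0.0270). In both peaks the 2 genotypes did not overlap.

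Of 7 alpha2delta start-site peaks 4 were called, all lower. Beside this and the other roles below, 44.9% of all start-site peaks in this sort were called lower and 1.74% higher. Cacna2d3 fell from 79.3 and 65.5 to 39.8 and 32.4 (-0.99, SE 0.172, adjusted p = 0.000469). Cacna2d2 fell from 38.0 and 35.0 to 16.8 and 19.1 (-0.99, adjusted p = 0.00250). Cacna2d1, whose protein binds gabapentin, fell from 48.2 and 44.1 to 20.2 and 27.3 (-0.94, adjusted p = 0.00251). Of 19 calcium beta start-site peaks 7 were called, all lower, with Cacnb4 at 70.8 and 68.9 against 42.6 and 37.5 (-0.79, adjusted p = 0.00152). Of 11 gamma and TARP peaks 4 were, among them Cacng7 at 53.8 and 64.4 against 25.8 and 31.8 (-1.01, adjusted p = 0.000684). Without either SgshKO library limma called 0 channel peaks in NeuN+ nuclei, with 31 and 25 start-site peaks still at an unadjusted p under 0.05. Distal peaks at such a p numbered 123 and 127. edgeR then called 70 and 54 channel peaks of both classes. Without WT library 1 or 2 limma called 34 or 45, and DESeq2 on all libraries called 9.

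**Figure D3:**
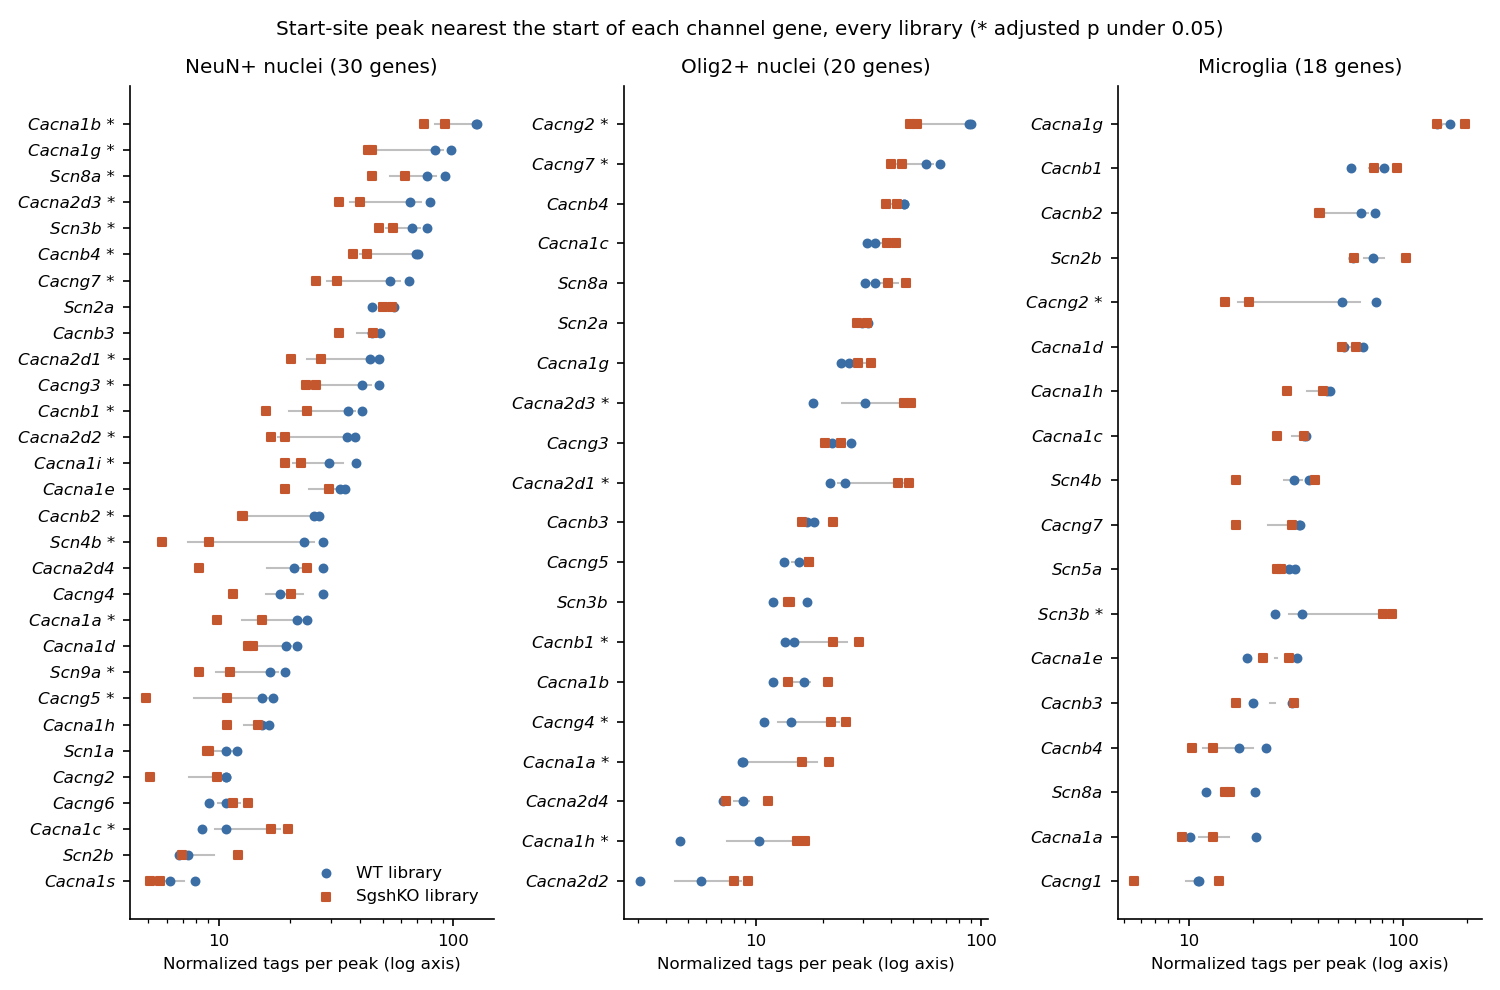
Normalized tags (log axis) of every library at the start-site peak nearest the TSS of each channel gene, WT as circles and SgshKO as squares, with a grey line between the means and a star for an adjusted p under 0.05. In NeuN+ nuclei the squares lie left of the circles for most genes and not for Scn2a; in Olig2+ nuclei the starred genes other than Cacng2 and Cacng7 have squares on the right.

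Distal channel peaks of NeuN+ nuclei changed in both directions. Of 479 peaks 106 were called, 33 higher and 73 lower (22.1%), beside 25.2% of all distal peaks, 12.6% higher and 12.6% lower. Pores of the P/Q, N and R-type had 2 higher and 23 lower of 107 peaks, T-type pores 0 and 11 of 39, and sodium pores 2 and 13 of 65. L-type pores had 6 higher and 3 lower of 60, alpha2delta genes 9 and 6 of 48, and calcium beta genes 8 and 6 of 66. The difference between roles was not tested.

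The balance of rises and falls depends on the scaling. With tags scaled to their sum in peaks, 69 distal channel peaks were higher and 15 lower, and with edgeR 66 and 28. The median of all peaks in the table moved from -0.23 to 0.05 between library-total and in-peak scaling. Relative to all distal peaks the distal channel peaks had a median lower by 0.14 under library totals, and the offset was -0.14 under each of the 4 other scalings run with limma. With the lowest 25% of peaks left out it was -0.039. This offset was not tested.

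Several genes had called falls and no called rise. Cacna1a had 0 higher and 15 lower of 44 distal peaks, Scn8a 0 and 11 of 39, Cacna1b 0 and 6 of 29, Cacna1i 0 and 5 of 16, and Cacna1g 0 and 5 of 14. Whether falls were more frequent in these genes than in others was not tested. The largest fall among called peaks at or above the table's median level was in intron 3 of Cacna1a (chr8:84477401-84477643), from 24.4 and 25.4 tags to 4.89 and 12.1. The SgshKO libraries were both low but unlike each other, and the change was -1.56 (SE 0.325, adjusted p = 0.00191). In intron 1 of Cacna1b, 1141 bp after the start, tags fell from 74.8 and 69.5 to 34.9 and 32.4 (-1.08, adjusted p = 0.000135). In intron 1 of Scn8a (chr15:100925057-100925359) they fell from 27.2 and 29.9 to 11.9 and 14.6 (-1.06, adjusted p = 0.00348). The most open distal channel peak of the sort, also in intron 1 of Scn8a, had 98.0 and 93.2 tags in WT and 81.7 and 69.2 in SgshKO and was not called (adjusted p = 0.0613).

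Rises were called in other genes. In intron 1 of Cacna2d1 (chr5:16000944-16001177) tags rose from 15.9 and 16.4 to 35.6 and 43.8 (1.24, SE 0.217, adjusted p = 0.000478), although the start site of the gene fell. In intron 2 of Cacnb4 (chr2:52668362-52668942) they rose from 9.63 and 7.91 to 23.03 and 21.6 (1.26, adjusted p = 0.00229), again beside a fall at the start. In intron 2 of Cacnb2 they rose from 7.93 and 6.78 to 20.2 and 15.2 (1.16, adjusted p = 0.00738), and 43560 bp from the Cacng5 start from 19.8 and 17.5 to 35.6 and 45.1 (1.06, adjusted p = 0.00148). A Cacna1e peak rose from 8.50 and 13.6 to 22.3 and 26.0 (1.10, adjusted p = 0.00652). That both SgshKO libraries exceeded both WT libraries was a condition for naming these 5 peaks, not a further result. Cacna2d3 held 6 higher and 4 lower of 26 distal peaks.

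**Figure D4:**
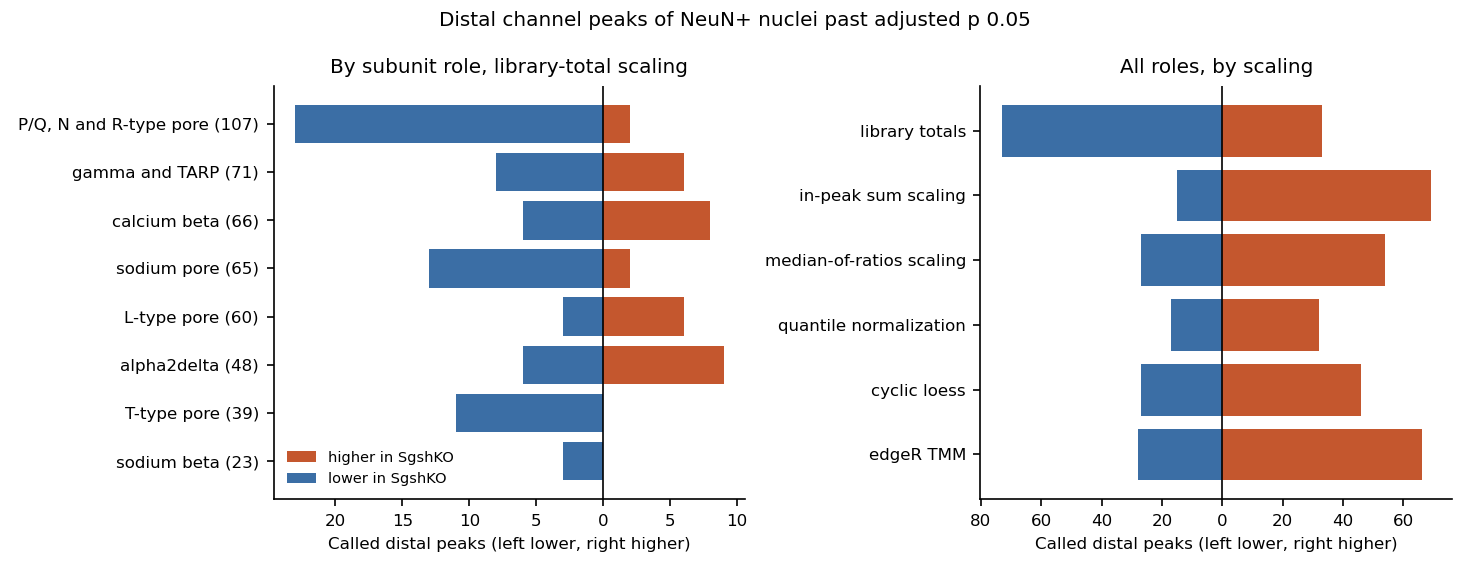
Numbers of called distal channel peaks in NeuN+ nuclei, lower in SgshKO to the left and higher to the right, by subunit role with the number of peaks in brackets (left) and by scaling (right). Pores of the P/Q, N, R and T-type and sodium pores lie to the left with library totals, and the totals over all roles turn from 73 lower and 33 higher to 15 lower and 69 higher with in-peak scaling.

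In Olig2+ nuclei most channel start sites were not called, and more were called higher than lower in SgshKO. Of 125 channel peaks 34 were called, 19 higher and 15 lower (27.2%, beside 19.8% of all peaks, 8.17% higher and 11.7% lower). Without WT library 1 or 2 the count was 16 or 14, and the split was 20 higher and 5 lower with quantile normalization. Of 34 start-site peaks 10 were called (29.4%), 8 higher and 2 lower, beside 20.3% of all start-site peaks, 12.7% higher and 7.56% lower, and the median log2 change was 0.29 beside 0.05. The split was 8 and 2 under in-peak and median-of-ratios scaling too, but 5 and 1 without WT library 1, 3 and 1 without WT library 2, and 2 and 1 with DESeq2.

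Marker sums also differed between the genotypes of this sort without overlap. The oligodendrocyte sum was 3031 to 3038 in WT and 2400 to 2436 in SgshKO. Of its 23 peaks 6 were called lower and 1 higher, and the summed tags of Mag, Opalin and Sox10 were not lower. The neuron sum given above was higher in SgshKO, but the median log2 change of its 7 peaks was -0.08. Map2 (232 tags in WT, 281 in SgshKO) and Gad1 (5.67 and 15.4) carried the difference, whereas Snap25 had 21.4 and 21.3 and Syt1 12.3 and 11.5. The oligodendrocyte precursor sum (4 of 4 genes) was 270 to 277 in WT and 314 to 321 in SgshKO, and the microglia sum (2 of 8) 233 to 240 and 271 to 284. The astrocyte sum (1 of 6) was 8.18 to 9.34 and 5.98 to 6.15. The part of these cells in the channel values was not tested.

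The smallest adjusted p-values among the rises were in alpha2delta genes. Cacna2d3 had 30.6 and 17.9 tags in WT and 45.5 and 49.2 in SgshKO (0.98, SE 0.220, adjusted p = 0.00205; 0.118 without WT library 2), and its second start-site peak 8.30 and 6.14 against 19.7 and 21.9 (1.42, adjusted p = 0.00110). Cacna2d1 rose from 24.9 and 21.5 to 43.0 and 47.9 (0.94, SE 0.203, adjusted p = 0.00143). In each the SgshKO libraries lay above the WT libraries. Cacna1a, Cacna1h, Cacnb1 and Cacng4 also rose, by 0.79 to 1.09, but each lost its call without some single library. Without WT library 1 limma's adjusted p was 0.0726 for Cacna1a, 0.148 for Cacnb1 and 0.187 for Cacng4. Without WT library 2 it was 0.0779 for Cacna1a, 0.090 for Cacnb1 and 0.315 for Cacna1h, whose change was then 0.57. Without SgshKO library 1 it was 0.198 for Cacnb1, and without SgshKO library 2 it was 0.121 for Cacna1a and 0.111 for Cacng4. The falls were in TARP genes, Cacng2 from 90.8 and 88.5 to 48.6 and 51.9 (-0.82, SE 0.148, adjusted p = 0.000198) and Cacng7 from 57.1 and 66.0 to 40.0 and 44.5 (-0.53, adjusted p = 0.0264; 0.0829 and 0.259 without WT library 1 or 2 and 0.0871 without SgshKO library 1).

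Of 91 distal peaks of Olig2+ nuclei 24 were called, 11 higher and 13 lower (26.4%, beside 19.7% of all distal peaks, 6.7% higher and 13.0% lower). The T-type gene Cacna1h held 6 of the falls, among 10 distal peaks, with 38.4 and 47.6 tags in WT against 17.8 and 18.0 in SgshKO in intron 2 (chr17:25420359-25420792; -1.21, SE 0.217, adjusted p = 0.000193). The L-type gene Cacna1c held 4 falls and 1 rise among 11. The most open channel peak of the sort, in intron 4 of Cacna2d3 (chr14:29425251-29425563), rose from 175 and 181 to 272 and 258 (0.57, SE 0.0885, adjusted p = 2.95e-05). The Cacnb4 intron 2 peak that set Olig2+ apart from NeuN+ nuclei in WT rose from 154 and 177 to 241 and 231 (0.52, adjusted p = 0.000284), and a Cacna1a intron 1 peak from 79.4 and 58.3 to 129 and 119 (0.86, adjusted p = 6.65e-05). None of these groups overlapped, as in 16353 of all 16370 called peaks of this sort. For the Cacna1h, Cacnb4 and Cacna1a peaks this was also a condition of naming. With quantile normalization the distal split was 12 higher and 4 lower.

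The difference in genotype change between the nuclei sorts was tested as an interaction. Of 66 matched channel peaks 24 differed in their genotype change between NeuN+ and Olig2+ nuclei, 1 with a higher and 23 with a lower change in NeuN+ nuclei, beside 35.0% of all matched peaks, 3.29% higher and 31.7% lower. Without NeuN WT library 2 the count was 14. Of the 25 matched start-site peaks 16 did, all lower in NeuN+ nuclei (64.0%, beside 51.0% of all matched start-site peaks, 1.73% higher and 49.3% lower). With in-peak scaling 16 of the 66 differed, 8 in each direction, and with quantile normalization 11, 2 higher and 9 lower. The median interaction of all matched peaks was -0.41 with library totals and 0.10 with in-peak scaling.

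At the Cacna2d3 and Cacna2d1 starts the difference passed under every alternative run. For Cacna2d3 the interaction was -1.97 (SE 0.293, adjusted p = 2.45e-06) and for Cacna2d1 -1.88 (SE 0.295, adjusted p = 5.41e-06). Cacna2d2 had -1.86 (SE 0.427, adjusted p = 0.000814), although its own rise in Olig2+ nuclei, from 5.71 and 3.07 to 9.22 and 7.98 tags, was not called (adjusted p = 0.0951). Cacna1g differed by -1.29 (adjusted p = 0.000183) and Scn8a by -1.05 (adjusted p = 0.00165), with changes of 0.28 and 0.39 in Olig2+ nuclei that were not called. The 1 peak with the opposite sign was distal, in intron 16 of Cacna2d4 (interaction 1.55, adjusted p = 0.00502), where 4.77% of all matched distal peaks had a higher change.

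**Figure D5:**
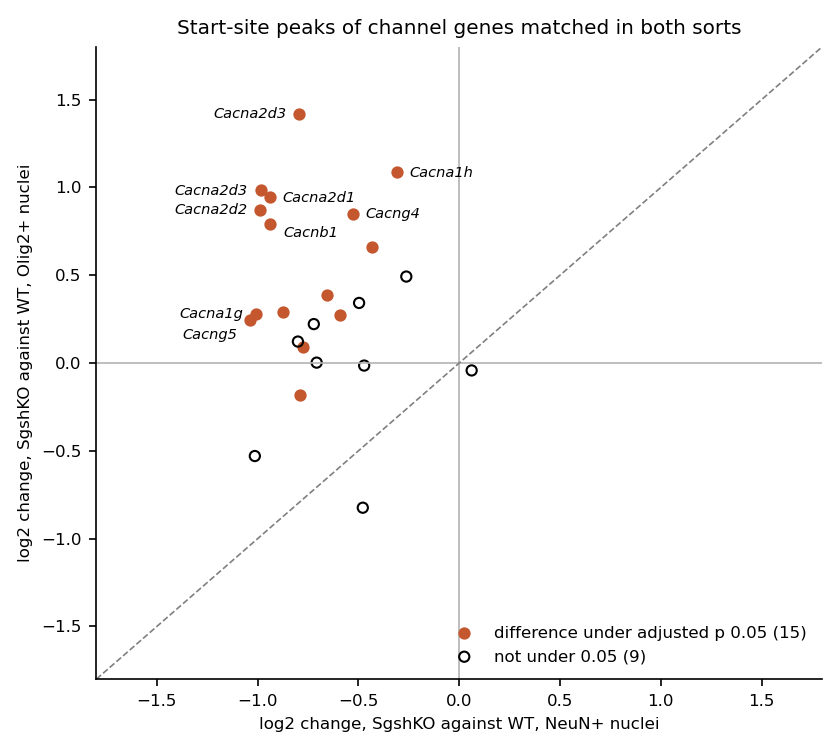
The log2 change (SgshKO against WT) at 24 start-site peaks of channel genes matched in both nuclei sorts, NeuN+ nuclei on the x axis and Olig2+ nuclei on the y axis, with equal change as a dashed line. Filled points (15) differ between the sorts past the adjusted p of 0.05; all lie above the line, and Cacna2d3 and Cacna2d1 lie in the corner of fall in NeuN+ and rise in Olig2+ nuclei.

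Against microglia fewer channel peaks differed. Between NeuN+ nuclei and microglia 8 of 67 did, 1 higher and 7 lower (11.9%, beside 29.3% of all matched peaks, 1.6% higher and 27.7% lower). With in-peak scaling 9 were higher and 1 lower. The 1 with a higher change was the Cacng2 start site (1.35, adjusted p = 0.0380), beside 0.674% of all matched start-site peaks. Without mg WT library 2 the count was 3, and without mg SgshKO library 1 or 2 it was 12 or 15. Scn3b was among those lower under all 3 scalings. Cacna1g differed by -1.13 (SE 0.274, adjusted p = 0.00346), but with an adjusted p of 0.507 under in-peak scaling. An Scn8a intron 1 peak differed by -1.79 (adjusted p = 0.00707, or 0.111 under in-peak scaling). This is the Scn8a peak given above as far more open in WT microglia, not the one called in microglia. Between Olig2+ nuclei and microglia 4 of 27 differed (14.8%), beside 15.2% of all matched peaks, 2.9% higher and 12.3% lower. Of these 4 channel peaks 3 had a higher and 1 a lower change in Olig2+ nuclei. Among them were a Cacng1 distal peak (1.76, adjusted p = 0.0136), the second Cacna1h promoter peak (1.91, adjusted p = 0.0415) and Scn3b as given above. Without mg WT library 2 or Olig2 SgshKO library 2 limma called 0 (6 and 5 at an unadjusted p under 0.05; edgeR was not run on these contrasts), and without mg SgshKO library 1 it called 11.

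Genes whose products act with these channels were followed as a separate list of 38, holding ankyrins and other anchors of the axon initial segment, FGF homologous factors, calmodulins, the RIM proteins of the release site and the Unc79 and Unc80 subunits of the sodium leak channel. In NeuN+ nuclei 51 of their 100 start-site peaks were called, 2 higher and 49 lower, beside 46.6% of all start-site peaks, with a median change of -0.64 beside -0.53. Unc80 had 1 such peak, with a mean of 82.3 tags in WT and 37.7 in SgshKO. Of their 601 distal NeuN+ peaks 128 were called, 49 higher and 79 lower, beside 25.2% of all distal peaks. In Olig2+ nuclei 9 of their 53 start-site peaks were called, 5 higher and 4 lower, beside 20.3% of all start-site peaks. Of their 241 distal peaks 51 were called, 9 higher and 42 lower, beside 19.7% of all distal peaks, 6.7% higher and 13.0% lower. Nfasc alone held 91 of these distal peaks and 21 of the falls, and Ank3 40 and 8. In microglia 7 of 193 peaks were (2 higher, 5 lower; 7.37% of all).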

How the data were processed

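ATAC-seq libraries of 12 samples (3 sorts, 2 genotypes, 2 libraries each) were used. Per the submitters' processing notes reads were aligned to mm10 with Bowtie2 and peaks handled with HOMER; the notes as used here name no versions. The deposited tables hold, per the file headers, the tag signal of each library in each peak, normalized by the authors to 10000000 tags, with the total tags of each library and each peak's nearest TSS and annotation. Multiplying by the totals gave whole reads for 100% of values (within 0.01).

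The main test was limma 3.58.1 (R 4.3.3; lmFit, eBayes with trend) on log2(normalized tags + 1), two-sided, fitted on every peak of a table, with Benjamini-Hochberg adjustment over the table and a threshold of 0.05. Unless another tool is named, adjusted p-values are from limma. Sorts were compared over peaks matched one to one at 50% reciprocal overlap (bedtools 2.31.1). edgeR 4.0.16 and DESeq2 1.42.0 on the recovered reads, other scalings, filters and left-out libraries were alternatives. In data simulated at the depth of each table, limma recovered 69%, 73% and 83% of 4-fold changes in microglia, NeuN+ and Olig2+ nuclei. For 2-fold changes the shares were 10%, 21% and 36%. Only a small set of peaks above a read minimum was changed, far fewer than were called in the data. The adjusted threshold was therefore stricter in the simulation, and these shares do not give the power in the real tables.

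Peaks named are, per gene, the start-site peak nearest the TSS. Further named peaks are the 3 smallest p-values per comparison of sorts and the 3 most open distal peaks. The 5 largest called distal changes in each direction were also named, among peaks at or above the table's median level without overlap between genotypes. That non-overlap was a condition of naming these changes, not a further result. The members, lists and rules were chosen with earlier results of these data known. Promoter letters were matched by symbol to RefSeq tables of GRCm38.p6. Sequences of the peaks themselves were not used here. Some named results are not reported here; counts include all members, and the figures of single peaks leave these out.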

Additional observations from a re-analysis of the deposited data

Results flagged for a closer look

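The genotype change of 8 channel peaks differed between sorts by limma's interaction test, which is what singled them out. NeuN+ minus Olig2+ nuclei, the interaction was -1.969 at the Cacna2d3 start and -1.884 at the Cacna2d1 start. NeuN+ nuclei minus microglia, it was -1.976 at the Scn3b start, -1.125 at the Cacna1g start and -1.788 at an intron 1 peak of Scn8a. Olig2+ nuclei minus microglia, it was 1.759 at a distal Cacng1 peak, -1.518 at the Scn3b start and 1.913 at the second Cacna1h promoter peak.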

How the results depend on the processing

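With 2 libraries a group, the calls of the named peaks depended on the processing more than their directions did. Some of these were named for a large change or a small p-value, which favours a stable direction. Over all members the balance of directions turned as well. Distal NeuN+ channel calls went from 33 higher and 73 lower to 69 and 15 with in-peak scaling. Of 73 named peaks and interactions, 21 kept direction and call under every alternative. With all libraries kept, 566 of their values held both, 78 lost the call, 5 gained one and 8 changed sign. The microglial count of 5 was 3 with the lowest 25% of peaks left out, 15 with in-peak scaling, 9 with median-of-ratios scaling, 13 with edgeR and 13 with the replicate block. The NeuN+ count of 139 was 59 with quantile normalization, 88 with cyclic loess and 9 with DESeq2, and the Olig2+ count of 34 was 8 with DESeq2. Among changes that differ between sorts, NeuN+ against Olig2+ nuclei (24) gave 11 with quantile normalization and 15 at 80% overlap, NeuN+ nuclei against microglia (8) gave 2 and 4, and Olig2+ nuclei against microglia (4) gave 10 with in-peak scaling. At 80% overlap the WT differences were 27, 17 and 7 (42, 35 and 16 at 50%), since fewer peaks were matched. The other causes were not tested.

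Leaving out 1 library at a time gave 0 to 25 calls in microglia (edgeR 3 to 27), 0 to 45 in NeuN+ nuclei (edgeR 49, 65, 70 and 54) and 14 to 31 in Olig2+ nuclei (edgeR 22 to 27). For the 3 comparisons of sorts in the order above, changes that differ ranged over 14 to 21, 3 to 15 and 0 to 11, and WT differences over 33 to 42, 24 to 39 and 11 to 19. The edgeR runs without a library were chosen after seeing the data.

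The sign changes with all libraries kept were in peaks not called. With in-peak scaling, quantile normalization and cyclic loess the microglial changes were -0.091, -0.18 and -0.14 at the Cacna1g start (0.12 by library totals) and -0.13, -0.24 and -0.23 at the distal Cacna1h peak (0.08). The NeuN+ Scn8a peak at -12680 bp was at 0.17 with quantile normalization and 0.15 with cyclic loess. Over left-out libraries limma gave -0.10 to 0.336 (Cacna1g), -0.675 to 0.828 (Cacna1h) and -0.096 to 0.219 (NeuN+ Scn2a). edgeR without 1 library changed the sign to -0.0320 at the Cacna1g start, to -0.423 at the Cacna1h peak, and to 0.0327 and 0.0165 at the Olig2+ Cacna2d4 peak.

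Peak by peak, deviations of same-numbered libraries correlated at 0.042, 0.0036 and 0.00069 in microglia, NeuN+ and Olig2+ nuclei. This measure does not see a shift shared by all peaks, so it cannot exclude that replicate numbers pair the libraries. With the replicate block the NeuN+ and Olig2+ counts were 152 and 34.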
